A study of Mus musculus with 27 samples.

Results

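Pancreatic islets taken 8 h after an injection of 4-hydroxytamoxifen (4OHT) were compared with islets taken 2 h after it, in mice whose beta cells carry a form of Myc that the drug switches on. The arrays were chosen by their labels, 3 arrays of the 8 h group and 3 of the 2 h group, out of 27 arrays in 9 groups of 3. All mice of the series carried 2 transgenes, MycER and BclXL, both under an insulin promoter, so beta cells are the cells meant to express them. MycER is Myc joined to the hormone-binding part of the oestrogen receptor and acts only when the drug is bound, and BclXL blocks cell death; the untreated mice, used here as a side reference, carry both transgenes as well. Mice of the 2 h, 4 h, 8 h and 24 h groups were killed at those times after the injection, and untreated mice at time 0. The remaining groups had 21 days of 4OHT, or 21 days of it followed by 2, 4 or 6 days with Myc off. These groups are not compared here. All 27 arrays entered the statistical model, so standard errors and p-values rest on the spread within all 9 groups. No strain, age, sex or hour of the day is given, and no injected group that went without 4OHT, so the injection, the drug and MycER activation cannot be told apart. Likewise hours since the injection and clock time cannot be told apart. Islets were cut out by laser capture, and their RNA was amplified in 2 rounds before it was hybridised to the array. The labels do not say whether the arrays of a group came from separate mice, so p-values measure the spread between these samples, which may be technical. The array measured 8251 genes with 1 symbol, each through the probe set with the highest mean over the 27 arrays, and all levels are log2 values, so that a difference of 1 is a 2-fold change.

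Myc pairs with Max, binds the E-box sequence in promoters and turns on genes for ribosome building, protein synthesis and metabolism. In a resting cell it also sets off entry into the cell cycle: cyclin-dependent kinases inactivate the retinoblastoma protein, E2F transcription factors are freed, and E2F switches on the enzymes that license, unwind and copy DNA. Adult beta cells rarely divide, and they devote much of their transcription to insulin, its granules and glucose sensing. In sections of pancreas an islet borders on acinar tissue, which makes digestive enzymes, and holds blood vessels and leukocytes.

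Levels of other tissues moved among these arrays. The mean over 19 acinar markers was 9.61 to 10.89 in the 2 h arrays and 9.01 to 10.99 in the 8 h arrays, against 7.77 to 10.38 in untreated islets. The mean over 61 leukocyte markers was 7.32 to 8.12 at 2 h, 6.81 to 8.05 at 8 h and 6.96 to 7.25 in untreated islets. The highest leukocyte levels were those of 2 h replicate 1 and 8 h replicate 3, and the counts of calls and of most lists are also given without these 2 arrays. In acinar level, 2 h replicate 1 was the lowest of its group (9.61) and 8 h replicate 3 the highest (10.99). Leaving both out therefore widens the acinar difference between the times. Insulin (Ins2), which defines the beta cell, was at 13.80 ± 0.03 (SD, n = 3) at 2 h and 13.83 ± 0.03 at 8 h, so both groups held islet RNA. Its means were 13.82, 13.70 and 13.66 in untreated, 4 h and 24 h islets. At such a high level the probe set may not register a change in the share of beta cells. As a guide to weak signal, 15 control probe sets for bacterial genes averaged 3.56 to 7.09 over the 6 arrays, with a median of 3.91. In bulk tissue, fewer cells of a type and less RNA per cell cannot be told apart.

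Between 2 h and 8 h, 4 genes of DNA replication and its checkpoint, Chek1, Cdc7, Rpa2 and Tipin, rose between 1.65-fold and 3.7-fold. Sez6, Zfp101 and Piga also rose, and Papss2 fell 4.65-fold. These 8 genes were called by limma at a Benjamini-Hochberg adjusted p under 0.05, which is 0.097% of the 8251 genes. The 7 rises are 0.0848% and the 1 fall is 0.0121%. The median difference over all genes was 0. In all 8 the mean at 4 h lay between the means at 2 h and 8 h, as the plot of the called genes by array shows.

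Chek1 encodes the kinase that halts the cell cycle when replication forks stall. Its level was 6.48, 6.83 and 6.60 in the 2 h arrays and 8.66, 8.11 and 7.97 in the 8 h arrays, a rise of 1.61 ± 0.20 (SE; 3.05-fold, adjusted p = 0.000938). Every 8 h array lay above every 2 h array, by more than 1 log2 unit. The 2 h mean of 6.64 ± 0.18 (SD) stood below the untreated mean of 7.49 ± 0.33, a difference of -0.85 (adjusted p = 0.066). Against untreated islets the 8 h level was higher by 0.76 (adjusted p = 0.0584).

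Cdc7, the kinase that fires licensed origins, was at 5.88, 5.50 and 6.07 at 2 h and at 7.87, 7.75 and 7.49 at 8 h. The rise of 1.89 ± 0.34 (3.7-fold, adjusted p = 0.0277) was the largest called rise. Its partner subunit Dbf4 differed by 0.28 ± 0.11 (adjusted p = 0.556). Its 2 h values lie in the range of the bacterial controls, so the fold may be understated. Rpa2, a subunit of the protein that coats single-stranded DNA at the fork, read 6.80, 6.90 and 7.01 at 2 h and 7.90, 8.48 and 8.21 at 8 h (1.29 ± 0.18, 2.45-fold, adjusted p = 0.00313). Tipin, which with Timeless steadies the paused fork and helps to activate Chek1, had the smallest called rise. It went from 5.51, 5.49 and 5.69 to 6.01, 6.41 and 6.44 (0.72 ± 0.13, 1.65-fold, adjusted p = 0.0306), with no overlap but at weak signal in both groups. Against untreated islets Cdc7 (1.59), Rpa2 (0.98) and Tipin (0.74) were called higher at 8 h by limma (adjusted p = 0.0165, 0.00685 and 0.00457). None of them was called against untreated islets at 2 h. At 24 h the means of Chek1 (7.36), Cdc7 (6.14), Rpa2 (7.55) and Tipin (5.68) were all lower than at 8 h.

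The other called genes belong to unrelated processes. Sez6, a neuronal membrane protein, was tight at 2 h (5.92, 5.91 and 6.00) and stood at 7.39, 7.52 and 6.97 at 8 h, a rise of 1.35 ± 0.22 (2.55-fold, adjusted p = 0.0144). It was called higher than untreated islets at 8 h by limma (1.29, adjusted p = 0.00457) and not at 2 h. Zfp101, a zinc finger protein, went from 5.34, 5.04 and 5.23 to 6.17, 6.33 and 6.29 (1.06 ± 0.18, 2.08-fold, adjusted p = 0.023). Piga, which carries out the first step in making the membrane anchor GPI, had 6.64, 6.74 and 6.91 at 2 h against 8.36, 7.89 and 7.35 at 8 h (1.10 ± 0.21, 2.15-fold, adjusted p = 0.0419). Its called probe set is of the kind that can bind related transcripts, and a second Piga probe set gave 1.42-fold with an adjusted p of 0.66. Against untreated islets Zfp101 and Piga stood at -0.42 and -0.36 at 2 h and at 0.64 and 0.74 at 8 h. None of these differences was called by limma (adjusted p = 0.37, 0.505, 0.0831 and 0.0722). Papss2, an enzyme that makes the sulfate donor of the cell, was the gene that fell: 8.35, 8.10 and 8.16 at 2 h against 5.81, 6.31 and 5.84 at 8 h, a difference of -2.22 ± 0.32 (adjusted p = 0.00365). Against untreated islets it was also lower at 8 h (-2.63, adjusted p = 0.000191), and its 24 h mean was 7.36.

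**Figure D1:**
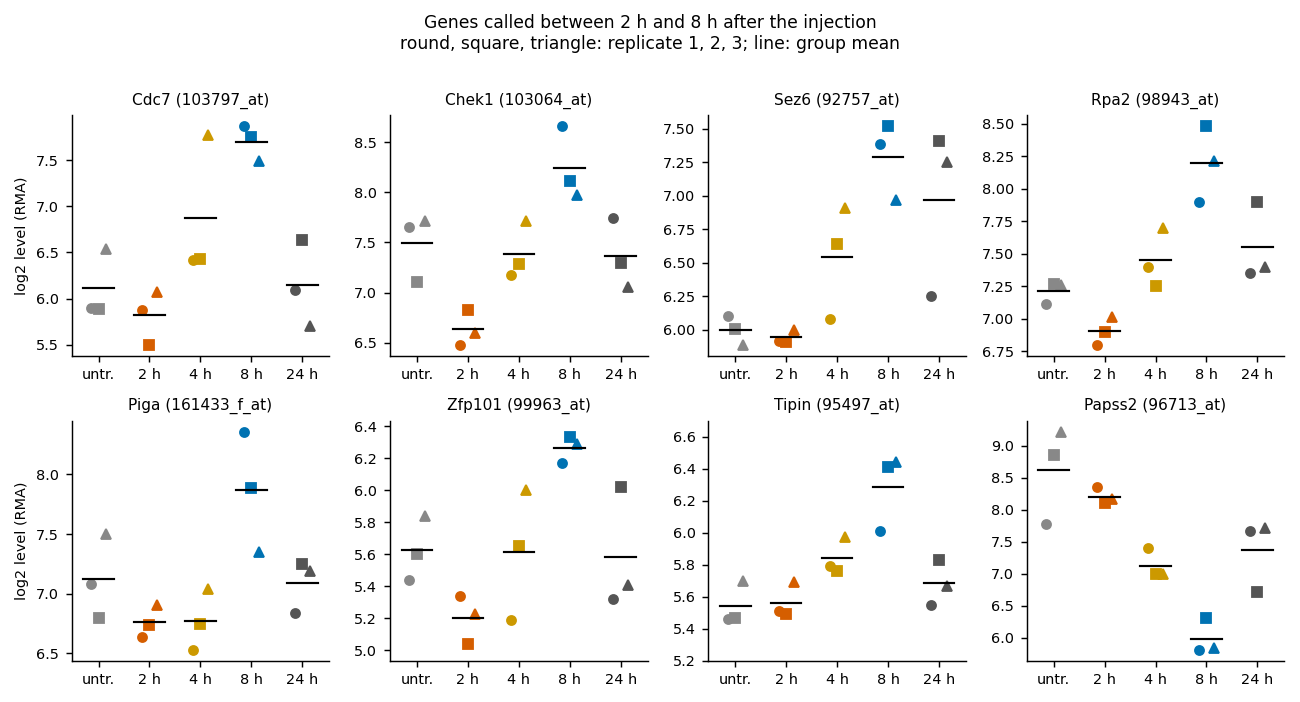
Log2 level of the 8 called genes on each array of untreated islets and of islets at 2 h, 4 h, 8 h and 24 h after 4OHT; points are arrays, lines are means of 3. In each panel the 3 arrays at 8 h lie clear of the 3 at 2 h, with Chek1 at 6.48 to 6.83 against 7.97 to 8.66 and Papss2 at 8.10 to 8.35 against 5.81 to 6.31.

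The number of calls rested on single arrays. It was 3 without 2 h replicate 1, without 2 h replicate 2 or without 8 h replicate 2, 10 without 8 h replicate 1, 16 without 8 h replicate 3 and 19 without 2 h replicate 3. Chek1, Rpa2 and Papss2 kept their calls in all 6 of these fits, Sez6 and Zfp101 in 3, and Cdc7, Tipin and Piga in 2. Without the 2 arrays richest in leukocyte markers, Chek1 alone stayed called (1.67, adjusted p = 0.0165), while Rpa2 (1.24, adjusted p = 0.0785) and Papss2 (-2.07, adjusted p = 0.112) had differences of like size. With the 6 arrays fitted alone, all 7 rises lost their calls and Papss2 kept its own, and with the 3 prime excess of Gapdh as a covariate Cdc7, Piga, Tipin and Zfp101 lost theirs. With the acinar and leukocyte levels as covariates 19 genes were called, the 8 among them.

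The wider set of DNA replication and G1/S genes stood higher at 8 h as a group. Of 69 measured members, 4 rose past the adjusted threshold and none fell, and 61 had a higher mean at 8 h. The median difference was 0.413, beside 0 over all genes. At an unadjusted p under 0.05, 32 members (46.38%) were higher and 0 were lower, against a background of 4.52% of all genes higher. In 36 members every 8 h array lay above every 2 h array, which held for 6.7% of all genes, and in 0 members every 8 h array lay below. Relative to untreated islets the median of the list was -0.027 at 2 h and 0.397 at 8 h; both comparisons use the same untreated arrays. By array, the mean of the list above untreated islets was -0.082, -0.068 and 0.104 at 2 h, 0.067, 0.139 and 0.282 at 4 h, and 0.323, 0.619 and 0.549 at 8 h, with 8 h replicate 1 lowest of its group but above each 2 h array. Without the 2 leukocyte-rich arrays 21 of 69 (30.43%) were higher at the unadjusted threshold, beside 3.79% of all genes, and the list held 1 called gene; leaving out single arrays gave 27 to 35 genes, and 2 called genes in place of 4 without 2 h replicate 1, 2 h replicate 2 or 8 h replicate 2.

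Promoters of members with an E2F-like sequence are shown because E2F is the factor known to switch these genes on in late G1. In the pattern searched, N stands for any base, so a match need not fit a stricter E2F consensus. Each line is the 280 bases from 250 before the gene's start, in RefSeq (GRCm38.p6), 5′ to 3′ on the gene's strand; capitals mark the 8 bases that match TTTNNCGC or its reverse complement GCGNNAAA, the letters searched on both strands. They are the 4 members of the replication list with the largest difference among those with a match. The other members with a match had differences from 0.73 (Dnmt1) down to -0.12 (Mcm5, on the probe set used). Mcm6, with 3 matches, differed by -0.07. Cdc6 (chr11:98907901-98908180, plus strand) loads the replicative helicase, Dtl (chr1:191575515-191575794, minus strand) directs the licensing factor Cdt1 to destruction, Mcm3 (chr1:20820283-20820562, minus strand) is a subunit of that helicase, and Uhrf1 (chr17:56303087-56303366, plus strand, the first of 2 starts with a match) brings the maintenance methyltransferase to newly copied DNA.
Cdc6: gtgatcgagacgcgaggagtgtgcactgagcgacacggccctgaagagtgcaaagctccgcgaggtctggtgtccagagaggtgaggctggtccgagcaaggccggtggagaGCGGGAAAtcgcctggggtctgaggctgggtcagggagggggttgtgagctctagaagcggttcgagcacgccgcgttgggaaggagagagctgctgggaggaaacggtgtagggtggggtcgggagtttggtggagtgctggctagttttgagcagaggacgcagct
Dtl: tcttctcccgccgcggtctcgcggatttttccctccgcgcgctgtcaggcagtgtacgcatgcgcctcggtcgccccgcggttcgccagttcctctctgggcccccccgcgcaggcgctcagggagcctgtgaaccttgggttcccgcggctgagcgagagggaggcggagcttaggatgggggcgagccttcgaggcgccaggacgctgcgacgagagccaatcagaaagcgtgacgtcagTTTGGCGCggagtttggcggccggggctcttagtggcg
Mcm3: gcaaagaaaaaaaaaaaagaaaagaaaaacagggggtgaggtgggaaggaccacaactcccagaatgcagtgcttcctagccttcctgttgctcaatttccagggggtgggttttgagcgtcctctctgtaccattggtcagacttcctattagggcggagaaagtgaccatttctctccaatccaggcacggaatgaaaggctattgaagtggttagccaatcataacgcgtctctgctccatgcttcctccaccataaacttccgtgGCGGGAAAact
Uhrf1: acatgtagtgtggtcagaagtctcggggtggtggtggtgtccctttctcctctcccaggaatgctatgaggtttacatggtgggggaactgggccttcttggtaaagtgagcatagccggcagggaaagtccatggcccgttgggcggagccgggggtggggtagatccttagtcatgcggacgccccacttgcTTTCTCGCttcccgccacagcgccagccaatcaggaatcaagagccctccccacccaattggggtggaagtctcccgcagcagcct
Counted from the gene's start, the match begins at -138 in Cdc6, at -8 in Dtl, at -56 in Uhrf1 and at 19 in Mcm3. The table held promoters for 60 of the 69 list genes. A match was present in 21 of their 74 promoters (28.4%), in 6.91% of the 8412 promoters of array genes and in 4.84% of all 32851 promoters. Among promoters of genes higher at 8 h at an unadjusted p under 0.05, 62 of 397 (15.6%) had a match, and among those lower 20 of 289 (6.92%). The 6 promoters found for the called genes that rose held 0 matches, which says only that these letters are not in these windows. The E-box CACGTG was in 7 of the 74 replication promoters (9.46%), in 9.26% of promoters of array genes, in 8.06% of those of genes higher at 8 h and in 12.1% of those of genes lower at 8 h. A match is a description of sequence and shows no binding.

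Cdc6, of origin licensing, had the largest difference of the list. It was at 5.36, 5.64 and 6.04 at 2 h and at 7.51, 8.27 and 7.75 at 8 h, a difference of 2.16 ± 0.55 with an adjusted p of 0.182. The arrays did not overlap, and the untreated mean was 5.99 ± 0.28. Orc6, a subunit of the origin recognition complex, read 7.18, 7.02 and 6.96 against 8.18, 7.91 and 7.59 (0.84 ± 0.17, adjusted p = 0.0532). Cdt1 differed by 0.90 ± 0.34, Mcm2 by 0.87 ± 0.28 and Mcm3 by 1.38 ± 0.44, each with no overlap and adjusted p-values of 0.51, 0.356 and 0.356. The other helicase subunits were less even: Mcm4 differed by 0.39, Mcm7 by 0.38 and Mcm6 by -0.07, with overlap in each. Mcm5 was at -0.12 on the probe set used, while a second Mcm5 probe set gave 3.71-fold (adjusted p = 0.358) with no overlap.

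At the fork, Prim1, the primase that starts each new strand, was at 5.03, 5.30 and 5.18 at 2 h against 5.98, 6.52 and 6.34 at 8 h (1.11 ± 0.26, adjusted p = 0.139). The clamp loader subunits Rfc5 (1.08 ± 0.24, adjusted p = 0.11) and Rfc2 (0.92 ± 0.20, adjusted p = 0.0843) did not overlap between groups. The clamp Pcna differed by 0.77 ± 0.37 (adjusted p = 0.678), on top of a 2 h level already 0.61 over untreated islets. Pold1, the catalytic subunit of polymerase delta, differed by 0.87 ± 0.30 and Fen1, which trims Okazaki fragments, by 1.12 ± 0.47 with overlap, since 8 h replicate 1 (5.19) lay among the 2 h arrays. Second probe sets for Rfc5 (0.06) and Pold1 (-0.16) did not follow. Rrm1, the large subunit of ribonucleotide reductase, differed by 0.87 ± 0.31 on 1 probe set and by -0.09 on another, and the partner subunit Rrm2 by -0.05 ± 0.25.

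Genes that keep DNA methylation and chromatin in step with replication were also higher in mean without passing the threshold. Uhrf1 was at 6.72, 6.80 and 7.17 at 2 h and at 7.96, 8.07 and 7.97 at 8 h (1.10 ± 0.23, adjusted p = 0.057). Dnmt1, the maintenance methyltransferase, read 8.13, 8.02 and 8.16 against 8.89, 8.89 and 8.73 (0.73 ± 0.15, adjusted p = 0.0532), although a second Dnmt1 probe set gave a difference of -0.03. For both genes the groups were apart with little spread. Dtl was at 5.66, 5.77 and 5.97 against 6.64, 8.28 and 7.68, a difference of 1.73 ± 0.34 (adjusted p = 0.0515) in which the 8 h arrays varied most. Casp8ap2, needed for histone gene expression in S phase, differed by 0.95 ± 0.19 (adjusted p = 0.0532) on the probe set used and by 0.07 (adjusted p = 0.922) on a much dimmer one, and Brca1, a repair protein, by 1.07 ± 0.23 (adjusted p = 0.0642) at levels of 4.13 to 5.58, within the range of the bacterial controls.

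Among the regulators upstream, E2f1 was at 7.14, 7.48 and 7.53 at 2 h and at 8.03, 8.52 and 8.05 at 8 h (0.82 ± 0.16, adjusted p = 0.0532). Its second probe set gave 6.60, 6.82 and 6.72 against 7.22, 8.09 and 7.67, a difference of 0.95 ± 0.18 that passed the threshold (1.93-fold, adjusted p = 0.0419), so the E2f1 call depended on the probe set. Both probe sets stood below untreated islets at 2 h, by 0.37 on the first (-0.37) and 0.31 on the second (-0.31). Cyclin D1 (Ccnd1), which activates the kinases that inactivate the retinoblastoma protein, read 9.13, 9.94 and 9.35 against 10.17, 10.66 and 10.40 (0.94 ± 0.24, adjusted p = 0.193), while its second probe set gave 1.02-fold. Its 4 h mean of 10.34 was already at the 8 h level. The E cyclins differed by -0.16 ± 0.12 (Ccne1) and -0.01 ± 0.08 (Ccne2), and the cyclin-dependent kinase inhibitor Cdkn2b by -0.59 ± 0.23 (adjusted p = 0.534).

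**Figure D2:**
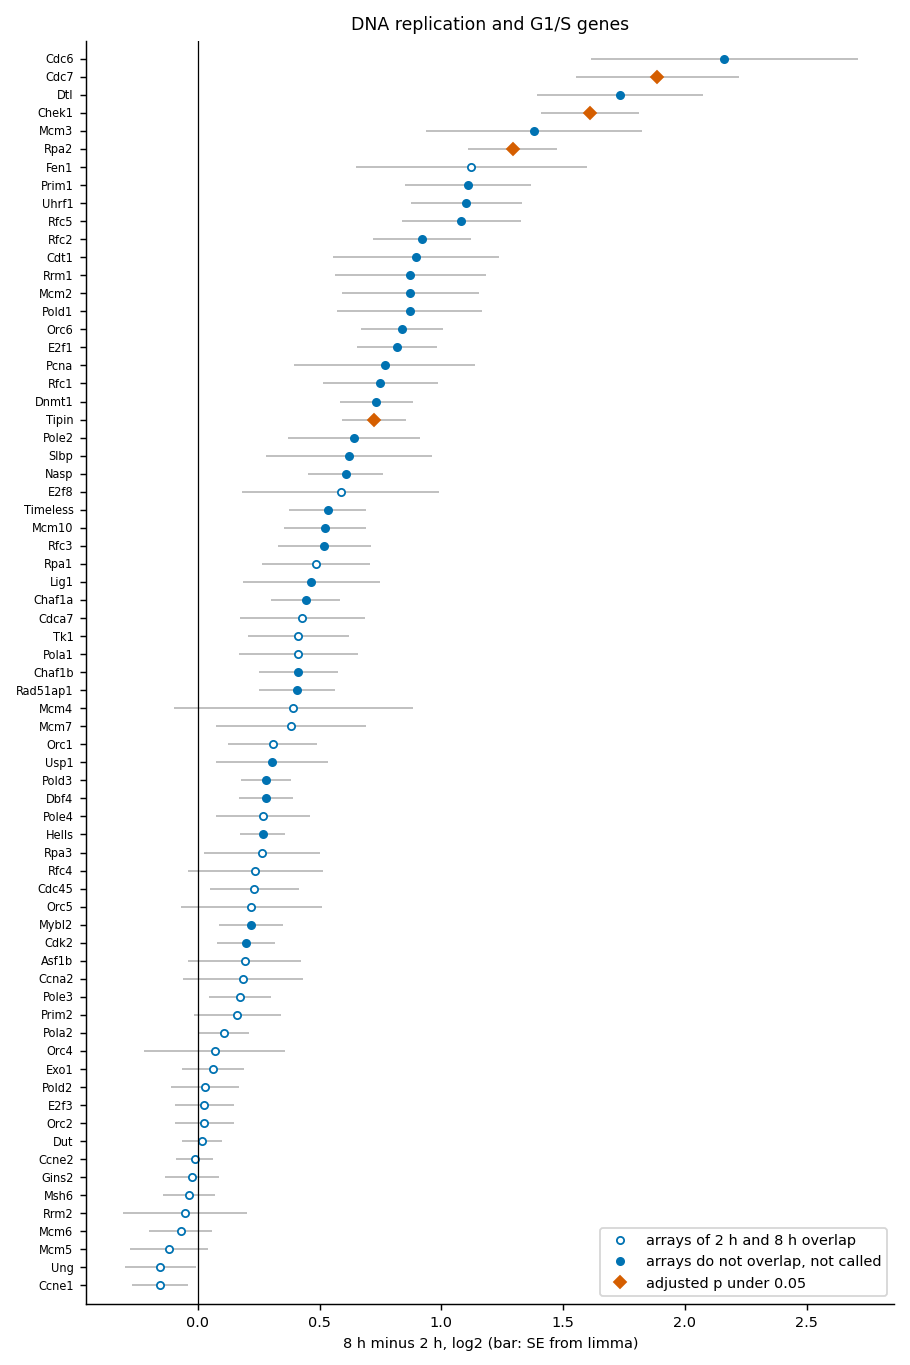
Difference between 8 h and 2 h (log2, points) with its standard error from limma (bars) for the 69 genes of DNA replication and G1/S, in order of size. The 61 genes with a positive difference lie right of the line at 0, with the 4 called genes as diamonds, and Cdc6 has the largest difference (2.16) and a wide error.

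Mitotic genes had mostly higher means at 8 h, but none passed the threshold. In the list of mitosis and G2/M, 0 of 63 genes were called by limma; 60 had a higher mean at 8 h, with a median difference of 0.333. At an unadjusted p under 0.05, 8 (12.7%) were higher, beside 4.52% of all genes, and 0 lower. In 13 the groups did not overlap with 8 h higher, which held for 6.7% of all genes. Stmn1, which loosens microtubules at mitosis, was at 8.69, 7.73 and 8.78 against 9.55, 9.60 and 9.45 (1.13 ± 0.36, adjusted p = 0.355), while a second, dimmer probe set gave 0.10 (adjusted p = 0.923). Mad2l1, of the spindle checkpoint, differed by 0.83 ± 0.22 (adjusted p = 0.223) and Cdca5, which holds sister chromatids together, by 0.87 ± 0.26 (adjusted p = 0.294). Mki67, the proliferation marker, was at 5.96, 5.52 and 6.66 against 6.38, 7.32 and 7.45, with overlap and an adjusted p of 0.851. Smc2, of the condensin that compacts chromosomes, had the largest difference (1.44 ± 0.57, adjusted p = 0.534) and Cdk1, the mitotic kinase, differed by 0.70 ± 0.34, while Plk1, another mitotic kinase, was at -0.04 ± 0.16. The mean of the list above untreated islets was -0.035, -0.187 and 0.112 at 2 h, 0.056, 0.450 and 0.434 at 8 h, and 0.744, 1.347 and 1.193 at 24 h, so every 24 h array lay above every 8 h array. The replication list had 0.110, 0.437 and 0.192 at 24 h, a range that overlaps its 8 h range. The count of 8 at the unadjusted threshold was 5 without 2 h replicate 1, 2 h replicate 2, 8 h replicate 2 or 8 h replicate 3, 13 without 2 h replicate 3 and 15 without 8 h replicate 1. It was also 5 (7.94%, median 0.270) without the 2 leukocyte-rich arrays, beside 3.79% of all genes. With the 6 arrays alone it was 19 (30.16%), beside 4.62% of all genes. It was 20 with acinar and leukocyte covariates and 24 with array weights. In these last fits 768 and 989 of all genes passed in either direction, beside 668 in the main fit. Leaving out single arrays gave 456 to 753.

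Growth genes that Myc is best known for stood above untreated islets in median at 2 h and had a median step near 0 from there to 8 h. The median of 75 genes of ribosome biogenesis and RNA polymerase I was 0.380 over untreated islets at 2 h and 0.397 at 8 h, and 0.037 between the times, with 0 called by limma. At an unadjusted p under 0.05, 3 (4.0%) were higher and 1 (1.33%) lower, beside 4.52% and 3.58% of all genes. For 49 classical Myc-induced genes the medians were 0.160, 0.230 and 0.053, in the same order, with 0 called and 3 (6.12%) higher and 0 lower at the unadjusted threshold. Without the 2 leukocyte-rich arrays 4 (5.33%) and 0 genes of these lists were higher, beside 3.79% of all genes. Polr1b, a subunit of RNA polymerase I, had the largest difference of the ribosome list, 0.63 ± 0.30 (adjusted p = 0.65). Cdca7, a Myc target also in the replication list, stood 1.30 over untreated islets at 2 h and 1.73 at 8 h, a step of 0.43 ± 0.26 (adjusted p = 0.777). Psat1, of serine synthesis, was at 9.21, 8.92 and 9.12 at 2 h and at 10.26, 10.43 and 9.81 at 8 h (1.08 ± 0.28, adjusted p = 0.182), with an untreated mean of 8.20 ± 0.08. The groups did not overlap, and its 4 h mean was 9.35. Phb2, of the mitochondrial inner membrane, differed by 0.39 ± 0.18 and Set by 0.58 ± 0.25, both after larger differences from untreated islets at 2 h (0.94 and 0.83). The plot of differences by list shows how narrowly these growth lists centre on 0.

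**Figure D3:**
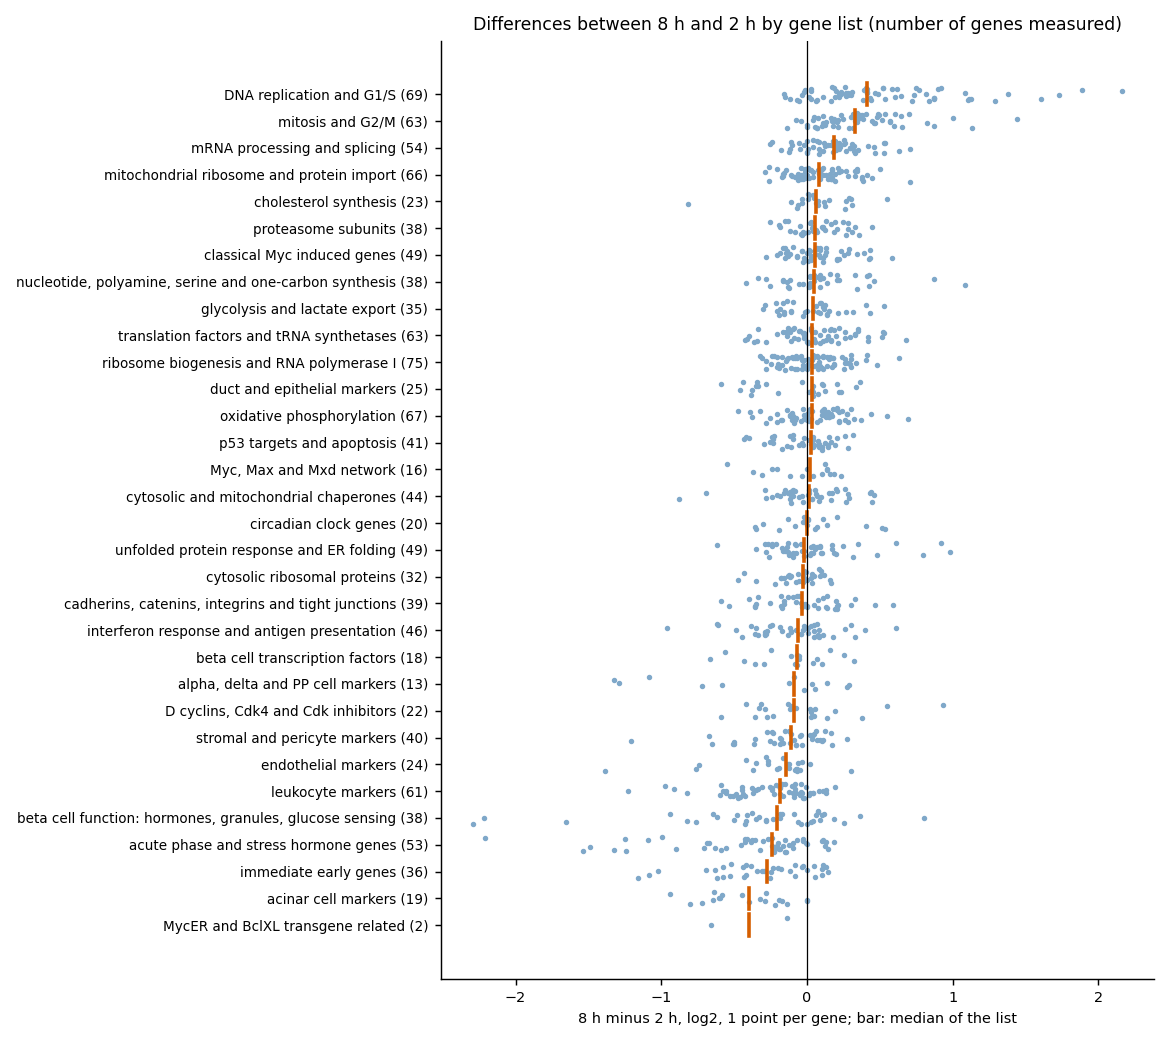
Difference between 8 h and 2 h (log2) for each measured gene of 32 lists, 1 point per gene, with the list's median as a bar and the number of genes in brackets. Replication (0.413) and mitosis (0.333) have the highest medians, ribosome biogenesis (0.037) lies at 0, and immediate early (-0.275) and acinar genes (-0.397) are among the lowest.

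Most genes of a list for the mature beta cell had lower means at 8 h. Its 1 called member was Papss2, the sulfate donor enzyme, which is no hormone, granule or glucose sensing gene. The list was written with earlier results of these data known, and its other 37 members were not called. Of 38 genes for hormones, granules and glucose sensing, 0 rose and 1 fell at the adjusted threshold, and 25 had a lower mean at 8 h. The median difference was -0.208. At an unadjusted p under 0.05, 10 (26.32%) were lower against 3.58% of all genes, and 0 were higher; in 13 every 8 h array lay below every 2 h array, which held for 5.45% of all genes. Against untreated islets the list median was -0.123 at 2 h and -0.320 at 8 h. Leaving out single arrays moved the median between -0.155 and -0.283 and the count between 7 and 12. Without the 2 leukocyte-rich arrays 8 (21.05%) were lower and 1 (2.63%) higher, beside 2.17% and 3.79% of all genes.

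Gad1, which makes GABA in beta cells, had the largest difference of all genes: 7.15, 6.63 and 6.99 at 2 h against 4.77, 4.38 and 4.75 at 8 h (-2.29 ± 0.49, adjusted p = 0.0686). The mean was already 4.85 at 4 h (SD 0.675). The 8 h values lie among those of the bacterial controls, so the difference may be larger than measured. Slc2a2, the glucose transporter GLUT2, was at 11.08, 11.07 and 10.74 against 9.24, 9.70 and 8.98, a difference of -1.66 ± 0.41 (adjusted p = 0.181) with the groups more than 1 unit apart. At 2 h it stood 0.44 above untreated islets and at 8 h 1.21 below (-1.21, adjusted p = 0.157). G6pc2, the islet glucose-6-phosphatase, differed by -0.94 ± 0.31, tyrosine hydroxylase (Th) by -0.82 ± 0.29, Sytl4, a granule docking protein, by -0.64 ± 0.21 and Ero1b, which oxidises folding proinsulin, by -0.62 ± 0.19; none of these arrays overlapped, and the adjusted p-values were 0.325 to 0.435. Islet amyloid polypeptide (Iapp) was at 12.80, 12.76 and 12.64 against 11.70, 12.63 and 12.60, where 8 h replicate 1 made most of the difference of -0.42 ± 0.17 (adjusted p = 0.567). Ins2 differed by 0.03 between the times, at levels of 13.80 and 13.83 where a change may not show. A second Ins2 probe set, at 11.82 and 11.81, gave -0.01.

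Of 18 beta cell transcription factors 0 were called by limma, 3 (16.67%) were lower at an unadjusted p under 0.05, beside 3.58% of all genes, and 0 were higher; the median was -0.070. Without the 2 leukocyte-rich arrays 2 (11.11%) were lower, beside 2.17% of all genes, and with acinar and leukocyte covariates 5. With the covariates 768 of all genes passed in either direction, beside 668 in the main fit. Pdx1, which drives insulin and Slc2a2, was at 6.11, 6.65 and 6.69 at 2 h and at 5.82, 6.15 and 5.80 at 8 h, from an untreated mean of 7.06 ± 0.10. The step of -0.56 ± 0.20 had an adjusted p of 0.435 and the groups overlapped, 2 h replicate 1 lying below 8 h replicate 2. Against untreated islets the 8 h level was lower (-1.13, adjusted p = 0.00457) and the 2 h level was not called (-0.57, adjusted p = 0.245). Neurod1 differed by -0.66 ± 0.30 with no overlap (adjusted p = 0.632), while Nkx2-2 was at 0.10 ± 0.28.

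**Figure D4:**
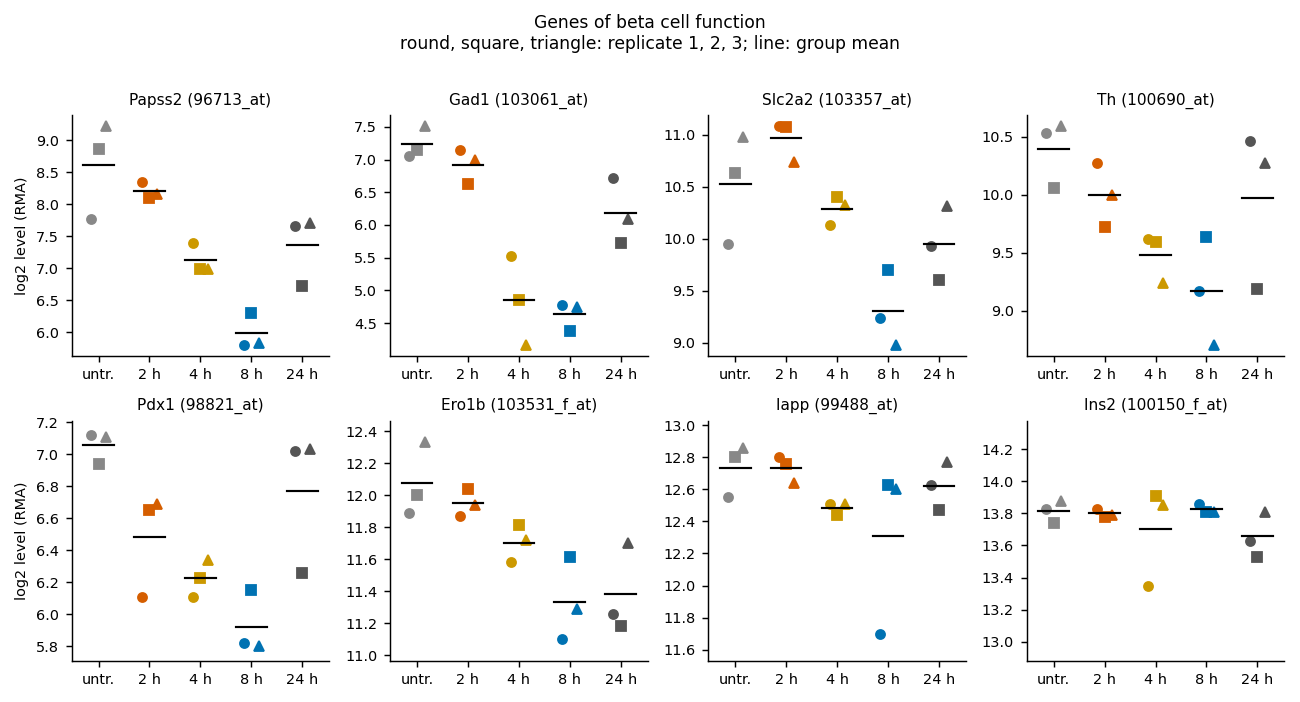
Log2 level of 8 genes of beta cell function on each array of untreated islets and of islets at 2 h, 4 h, 8 h and 24 h after 4OHT; points are arrays, lines are means of 3. Papss2, Gad1 and Slc2a2 are lowest at 8 h (means 5.99, 4.63 and 9.31). Papss2, a sulfate donor enzyme, is shown as a member of the list. Iapp is low in 8 h replicate 1 (11.70), and Ins2 is level at 13.80 and 13.83, where a change may not show.

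Genes of the early response to injury, steroid hormone and cytokines stood above untreated islets in median at 2 h, and most had lower means at 8 h. None of the 36 immediate early genes and none of the 53 acute phase and stress hormone genes were called, and 28 and 46 of them had a lower mean at 8 h. At an unadjusted p under 0.05, 11 (30.56%) and 9 (16.98%) were lower, against 3.58% of all genes, and 0 were higher in either list. The medians were -0.275 and -0.243. Against untreated islets the medians were 0.350 and 0.270 at 2 h and 0.138 and 0.057 at 8 h. Socs3, plotted with these genes, differed by only -0.15 ± 0.35 between the times (adjusted p = 0.971). It was still called higher than untreated islets at 8 h by limma (1.87, adjusted p = 0.00683). A second Socs3 probe set gave -0.11 between the times and 0.62 over untreated islets at 8 h (adjusted p = 0.0485).

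Errfi1, a feedback inhibitor of the EGF receptor that glucocorticoids induce, was at 9.81, 9.42 and 9.52 at 2 h and at 8.73, 7.63 and 8.66 at 8 h. The difference was -1.24 ± 0.25 (adjusted p = 0.0532), with no overlap, although a second Errfi1 probe set, at 7.54 and 7.44, gave -0.10. Errfi1 was 1.30 over untreated islets at 2 h (adjusted p = 0.0184) and 0.06 over them at 8 h, and its 4 h mean of 8.23 was already down. Rgcc, a cell cycle regulator that complement induces, was at 9.20, 9.61 and 9.07 against 8.72, 7.81 and 7.86 (-1.16 ± 0.24, adjusted p = 0.0532). It went from 1.21 over untreated islets at 2 h (adjusted p = 0.0223) to 0.04 at 8 h, with a 4 h mean of 8.71 between those of 2 h and 8 h. Fkbp5, a target of the glucocorticoid receptor, had means of 9.06 at 2 h, 8.65 at 4 h and 8.43 at 8 h (-0.63 ± 0.18, adjusted p = 0.244), and 7.87 at 24 h. Zbtb16, a hormone-induced transcription factor, was at 8.80, 8.18 and 8.46 against 6.17, 5.24 and 7.39 (-2.21 ± 0.52, adjusted p = 0.149), and a second, dimmer probe set gave 0.10. All 4 of these genes were high in each of the 3 arrays at 2 h.

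Other genes varied widely within each time. Il6, a cytokine, was at 6.31, 6.65 and 3.64 at 2 h and at 4.75, 3.61 and 3.63 at 8 h, beside an untreated mean of 3.56. Ccl2, which draws monocytes, read 10.45, 11.27 and 5.19 against 11.13, 5.43 and 6.38. Cebpd, an acute phase transcription factor, read 9.84, 10.56 and 8.75 against 9.73, 7.12 and 8.56 (-1.25 ± 0.45, adjusted p = 0.454). For each of these 3 genes 2 h replicates 1 and 2 and 8 h replicate 1 were the highest of their groups, and the groups overlapped. Cebpd was above its untreated mean of 7.55 ± 0.07 in all arrays except 8 h replicate 2. The mean of the acute phase list above untreated islets was 1.052, 1.037 and 0.136 in the 2 h arrays and 0.912, -0.146 and 0.212 in the 8 h arrays. For immediate early genes it was 0.687, 0.499 and 0.046 against 0.389, -0.134 and 0.044, with Fos at 7.65, 6.17 and 4.62 against 5.88, 4.52 and 4.78 and Dusp1, a phosphatase that ends MAP kinase signalling, at 10.68, 9.26 and 8.51 against 8.78, 7.66 and 8.53.

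The result for these lists followed the choice of arrays. Without 2 h replicate 3 the medians were -0.379 (immediate early) and -0.438 (acute phase), with 16 and 16 genes lower at the unadjusted threshold, and Fos, Fosl1, Il6 and Csf3 were among the calls. Without 8 h replicate 1 the medians were -0.337 and -0.537, with 14 and 21 genes lower, and Errfi1 and Rgcc were called. Without 8 h replicate 2 they were -0.173 and -0.093 with 3 and 8 genes, and without 2 h replicate 1 they were -0.162 and -0.167, also with 3 and 8. Without the 2 leukocyte-rich arrays they were -0.102 and -0.170, with 2 (5.56%) and 7 (13.21%) genes lower, beside 2.17% of all genes. With acinar and leukocyte levels as covariates the medians were -0.243 and -0.238, and 9 genes of each list were lower. Over all genes 668 passed the unadjusted threshold in either direction in the main fit, and 768 with the covariates. The number was 753 without 2 h replicate 3, 717 without 8 h replicate 1, 634 without 8 h replicate 2 and 456 without 2 h replicate 1.

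**Figure D5:**
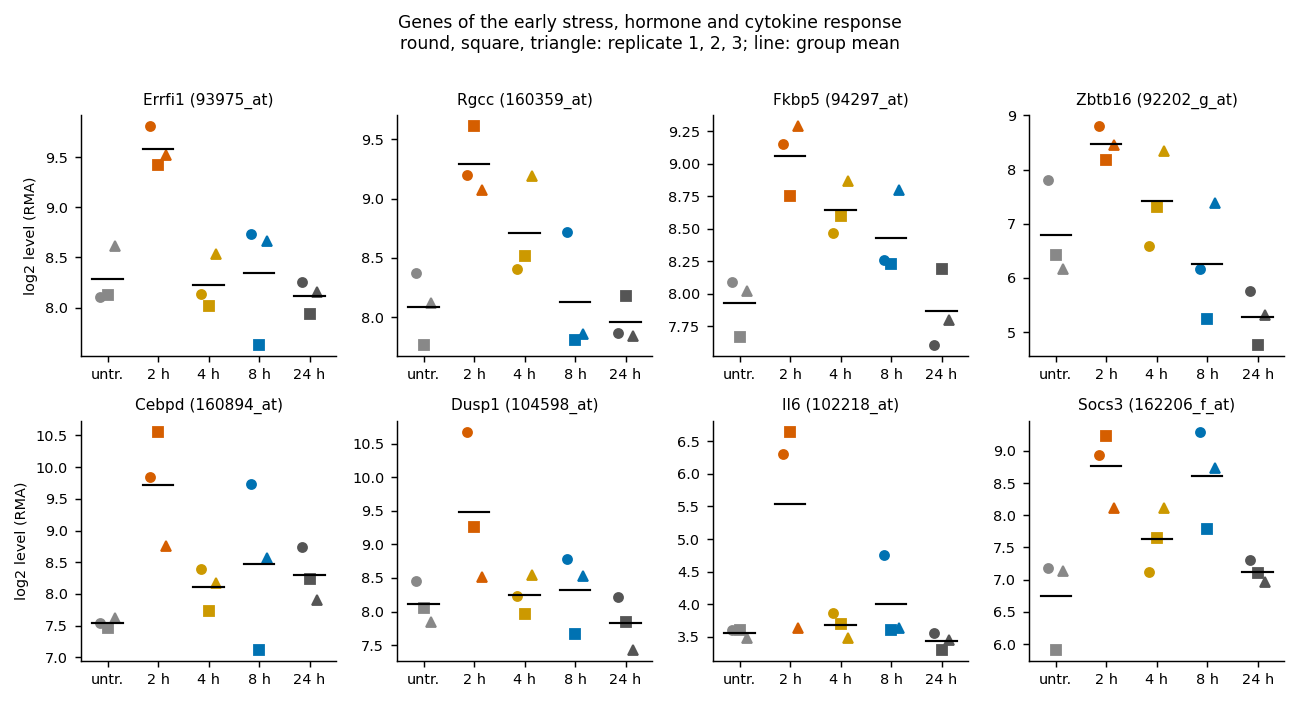
Log2 level of 8 genes of the early stress, hormone and cytokine response on each array of untreated islets and of islets at 2 h, 4 h, 8 h and 24 h after 4OHT; points are arrays, lines are means of 3. Errfi1 and Rgcc are high in all 3 arrays at 2 h, whereas Il6 is high in 2 h replicates 1 and 2 (6.31 and 6.65) and intermediate in 8 h replicate 1 (4.75).

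No gene of protein folding in the endoplasmic reticulum passed the threshold. Over 49 genes of the unfolded protein response the median was -0.023. At an unadjusted p under 0.05, 5 (10.2%) were higher and 1 (2.04%) lower, beside 4.52% and 3.58% of all genes. Without the 2 leukocyte-rich arrays these were 4 (8.16%) and 1 (2.04%), beside 3.79% and 2.17% of all genes. Creld2, a folding factor induced by stress in the endoplasmic reticulum, was at 7.79, 8.14 and 8.35 at 2 h and at 9.37, 9.18 and 8.68 at 8 h (0.98 ± 0.20, adjusted p = 0.0532). The groups did not overlap, but the untreated mean of 8.70 ± 0.07 lay between their means. Herpud1, which helps to clear misfolded proteins, differed by 0.61 ± 0.15 (adjusted p = 0.182). Ddit3, the stress transcription factor CHOP, read 8.18, 8.43 and 7.91 against 9.87, 8.98 and 8.43, a difference of 0.92 ± 0.24 (adjusted p = 0.193) with overlap. It was 0.78 under untreated islets at 2 h (-0.78) and 0.14 over them at 8 h. Hspa5, the chaperone BiP, differed by 0.48 ± 0.30.

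Of the remaining genes lower at 8 h with no overlap, Ndrg1, a gene that Myc proteins repress, came closest to the threshold. It was at 10.33, 10.27 and 10.51 at 2 h and at 9.42, 9.51 and 9.79 at 8 h (-0.80 ± 0.16, adjusted p = 0.0515), and a second probe set gave -0.63. The untreated mean was 10.14 ± 0.26. Pigr, the receptor that carries antibodies across epithelia (-0.81 ± 0.20), Fam151a (-0.89 ± 0.22), Ece1, the endothelin-converting enzyme (-0.56 ± 0.14), Trp53inp2, of autophagy (-0.85 ± 0.22), Man2b1, a lysosomal mannosidase (-0.76 ± 0.20), Fastkd5, of mitochondrial RNA processing (-0.65 ± 0.16), Csf3, a granulocyte growth factor (-0.61 ± 0.15), and Rnf44 (-0.35 ± 0.09) had adjusted p-values from 0.155 to 0.213. Pigr, Fam151a, Ece1 and Trp53inp2 were called lower than untreated islets at 8 h (adjusted p = 0.0396, 0.00242, 0.011 and 0.00185) and were not called at 2 h.

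No probe set related to the transgenes passed the threshold. A probe set for Myc was at 4.87 ± 0.63 at 2 h and at 4.50 ± 0.93 at 8 h (adjusted p = 0.936), within the range of the bacterial controls. The Esr1 probe set with the highest level, which may read the receptor part of MycER, was at 11.67, 11.87 and 11.80 against 10.95, 11.55 and 10.87 (-0.66 ± 0.28, adjusted p = 0.613). Its groups did not overlap, and the 8 h level stood at -0.93 against untreated islets (adjusted p = 0.105). The other Esr1 probe sets, all at lower levels, differed by 0.10, -0.13 and -0.02 between the times. Bcl2l1 was at 9.10 ± 0.15 against 8.96 ± 0.10. None of these reads the activity of MycER, which the drug controls at the protein. Mxi1, a Myc antagonist, was 1.24 over untreated islets at 2 h (adjusted p = 0.0184) and read 8.13, 7.60 and 7.71 at 2 h against 6.94, 7.59 and 7.27 at 8 h (-0.55 ± 0.24, adjusted p = 0.617).

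Acinar, leukocyte and endothelial markers mostly had lower means at 8 h, and markers of duct and epithelium did not, with 14 of 25 higher, 11 lower and a median of 0.033. Of 40 stromal and pericyte markers 27 were lower (median -0.112). Their part in the results above was not tested other than by the fits with acinar and leukocyte covariates and without the 2 leukocyte-rich arrays; leaving those out moved the acinar median to -1.515 and the leukocyte median to -0.255. Of the 19 acinar markers 0 had a higher mean and 18 a lower one, with a median of -0.397 and overlap in every one; Rnase1 (-0.94 ± 1.33) had the largest difference and Prss2 was at 12.15 to 12.74 and 11.84 to 12.88. Of 61 leukocyte markers 52 were lower (median -0.187), and the groups did not overlap in 1, the macrophage marker Adgre1 (-0.91 ± 0.31, adjusted p = 0.414), which was high in 2 h replicate 1. Of 24 endothelial markers 22 were lower (median -0.147), led by Procr (-1.39 ± 0.51), which was high in 2 h replicates 1 and 2, as Il6 was. Among these markers 0 were called by limma. At an unadjusted p under 0.05, 1 leukocyte marker (1.64%) and 4 endothelial ones (16.67%) were lower, beside 3.58% of all genes, and no acinar, duct or stromal marker passed. Without the 2 leukocyte-rich arrays 4 acinar (21.05%), 2 duct (8.0%), 2 endothelial (8.33%), 1 stromal (2.5%) and 0 leukocyte markers were lower, beside 2.17% of all genes. In that fit 1 endothelial marker was higher.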

How the data were processed

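Arrays of laser-captured mouse islets were used, 3 per group. The authors deposited log2 values per probe set; the submitters' processing notes name RMA, with version and settings not given in the sources used. RMA evens out array distributions and compresses low signal, so folds of weak genes are understated, and depth has no meaning for arrays; 3 arrays per group limit the precision. Of 12488 probe sets, 66 controls were left out and 12422 tested; 10833 have 1 gene symbol in the platform annotation, 396 several and 1193 none. Limma 3.58.1 in R 4.3.3 (lmFit and eBayes, two-sided) was fitted to all 27 arrays with 9 group means and 18 residual degrees of freedom. P-values were adjusted by Benjamini-Hochberg across these 12422, and genes were called at an adjusted p under 0.05. The fit was tested on simulated data. The members and lists were chosen with earlier results of these data known; 1278 of 1674 list symbols matched. Named were up to 15 genes per direction whose arrays do not overlap, called or, to fill up, of smallest p, 3 genes per list and a fixed panel; other list members were picked after their values were seen. Promoters came from RefSeq (GRCm38.p6). Alternatives were other scalings, probe set rules, variance models, covariates and arrays left out. Same-numbered arrays at 2 h and 8 h had correlations of deviations of 0.2591, 0.0603 and 0.3744, so the numbers were not taken as pairs.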

Additional observations from a re-analysis of the deposited data

How the results depend on the processing

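The 8 calls between 2 h and 8 h (87.5% of them higher) became 43 with array weights, 19 with the adjustment over 1 probe set per gene, 19 with acinar and leukocyte covariates, 17 with quantile normalization (76.5% higher), 14 without the dimmest 40% of probe sets, 12 with median centring, 4 with the 3 prime excess of Gapdh as a covariate, 2 with the 6 arrays alone (Papss2 and Gad1) and 1 without the 2 leukocyte-rich arrays. Leaving out 1 array at a time gave 3 to 19 calls. Other settings stayed close, with 9 calls when the probe sets of a gene were averaged, 8 with trend and robust variance and 7 with a 2-fold minimum. The replicate block gave 9 calls, 7 of them shared with the fit without it; it lost Piga and added E2f1 and Ndrg1. The numbers 1 to 3 are not stated to pair arrays. Among single named genes, 1909 of the values under other settings kept direction and side of the threshold, 78 passed it, 38 lost it and 1 reversed: Itgam, at 0.020 without the 2 leukocyte-rich arrays. The cause of these changes was not tested, except that fewer arrays or fewer probe sets were tested where the setting says so. With 3 arrays a group, differences near 1 log2 unit at this spread can miss the threshold. Levels under about 7 lie below the highest bacterial control (7.09), though the median of the controls was 3.91. The 2 h means of all 7 called rises lie under that highest control, from 5.20 (Zfp101) to 6.90 (Rpa2).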

Other observations

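Genes of mRNA processing and splicing were also higher in mean at 8 h. Of 54 measured, 43 had a higher mean, the median difference was 0.185, and 0 were called by limma; 7 (12.96%) were higher and 0 lower at an unadjusted p under 0.05, beside 4.52% of all genes higher, and in 11 the arrays did not overlap with 8 h higher, beside 6.7% of all genes. Without the 2 leukocyte-rich arrays 2 (3.7%) were higher, beside 3.79% of all genes. Snrpe, a core protein of the spliceosome, differed by 0.71 ± 0.24 (SE, adjusted p = 0.403) and Cpsf4, of 3 prime end formation, by 0.53 ± 0.18 (adjusted p = 0.403). In the list of translation factors and tRNA synthetases the 3 genes of smallest p were the synthetases Yars (0.68 ± 0.22, adjusted p = 0.356), Mars1 (0.52 ± 0.18) and Vars (0.52 ± 0.18, both 0.414). A second Yars probe set gave 0.07 (adjusted p = 0.96). The median of the 63 genes was 0.037, and 7 (11.11%) were higher and 1 lower at the unadjusted threshold.

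Hormones of the other islet cells were lower in mean at 8 h, each with its own spread. Pancreatic polypeptide (Ppy) was at 12.23 at 2 h and 10.91 at 8 h (-1.32 ± 0.58, adjusted p = 0.624). Its 8 h arrays read 11.10, 12.66 and 8.96, and without 8 h replicate 3 the difference was -0.35. The means were, for glucagon (Gcg), 9.02 and 7.93 (-1.09 ± 0.88, adjusted p = 0.865) and, for somatostatin (Sst), 9.90 and 9.17 (-0.72 ± 0.47, adjusted p = 0.82). Transthyretin (Ttr), abundant in alpha cells, differed by -1.29 ± 0.34 with no overlap (adjusted p = 0.213). Of 13 markers of these cells, 8 had lower means and 0 were called by limma, with 2 (15.38%) lower at an unadjusted p under 0.05, beside 3.58% of all genes. Of 20 circadian clock genes 10 were higher and 10 lower, with a median of 0.002. The 3 with the smallest p were Timeless (0.53), Arntl (-0.35) and Wee1 (0.40). None of them was called by limma, and 1, Timeless, was at an unadjusted p under 0.05. Timeless also acts at the replication fork with Tipin, as described above.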
